A study of Mus musculus with 6 samples.

Results

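DNA replication and nucleotide synthesis genes are the enzymes and loading factors that copy the genome in S phase and supply its building blocks. The 43 members were listed by symbol, from origin licensing to deoxynucleotide synthesis and entry into S phase, and all 43 were found among the 55401 genes of the deposited table. All 43 also passed the filter on low values, which asked for an FPKM of 1 or more in 3 or more of the 6 libraries and left 12766 genes for testing. FPKM is the deposited measure of level, scaled to gene length and library size. In the annotation deposited with the genes, 37 of the 43 members (86.0%) carried the term DNA replication, against 106 of the 12766 tested genes (0.830%), and 15 members (34.9%) carried DNA repair, against 2.37% of tested genes. They lay on 13 chromosomes.

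The cells were labelled mouse hepatic stellate cells, the vitamin A-storing pericytes of the liver that become collagen-making myofibroblasts when cultured. Messenger RNA was sequenced from 3 libraries of S100a16+/- cells, heterozygous for the gene of an EF-hand calcium-binding protein, and 3 libraries of wild-type (WT) cells, both on a C57BL/6J background and both kept for 7 days in serum-containing medium. Age, sex and whether the libraries came from separate animals are not stated in the labels, so the p-values measure only the spread between these samples. Genes that tell sex are given below. The comparison asks which genes differ when S100a16 is reduced.

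Replication starts in G1, when the origin recognition complex, Cdc6 and Cdt1 load the Mcm2 to Mcm7 ring onto DNA. In S phase Cdc45 and the GINS complex turn the ring into a moving helicase, primase and the polymerases copy the strands, and the sliding clamp Pcna, placed by replication factor C, holds the polymerases on. Many of these genes are targets of E2F transcription factors and are transcribed as cells leave quiescence, while ribonucleotide reductase, thymidylate synthase and thymidine kinase set the supply of deoxynucleotides.

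Library totals ran from 61979103 to 76291481 counts. S100a16 itself stood at 18.0, 17.7 and 30.0 FPKM in S100a16+/- replicates 1 to 3, against 57.7, 58.8 and 56.8 in WT replicates 1 to 3, for which the log2 change was -1.35 (edgeR adjusted p = 0.0313). It was -1.63 (edgeR adjusted p = 4.04e-05) without S100a16+/- replicate 3, and the call was lost with any other library left out (adjusted p 0.110 to 0.146). S100a16+/- replicate 3 differed from the other 5 in several genes. It had an Xist FPKM of 32.2 and a Ddx3y FPKM of 0.0102, against at most 0.0323 and at least 12.1 elsewhere. Xist is expressed in female cells and Ddx3y lies on the Y chromosome. By these genes replicate 3 was of female type and the other 5 of male type, so it did not share an animal with them. Sex was thus not balanced between the genotypes, and its part in the results on the members was not tested. Replicate 3 also had an Acta2 FPKM of 48.0 against 388 to 489, and an Alb FPKM of 242 against 4.81 to 64.6. Summed over 12 stellate and myofibroblast markers, FPKM was 135 in that library and 920 to 1083 in the others. In every library 4 of the 12 were under 1 (Lrat, Lhx2, Reln and Rgs5, which mark quiescent stellate cells or pericytes). Single markers in this sum also set S100a16+/- replicates 1 and 2 apart from WT, in both directions. Des was at 42.9 and 43.8 in them against 13.0 to 16.9 in WT, and Col3a1 at 14.2 and 12.2 against 26.6 to 33.3. Summed FPKM over 12 macrophage markers was 10198 to 15989 in the S100a16+/- libraries and 7525 to 7880 in WT, and 3 of the 12 were called higher. Lyz2 (4377 to 10057) and Marco (1162 to 3010) made up most of that sum in every library and stood far above any stellate marker. Of the 12, 5 were wholly higher in S100a16+/- libraries (Adgre1, Cd68, Marco, Cd5l and Lyz2), 3 wholly lower (Timd4, Ptprc and Cd163) and 4 overlapped. Summed FPKM over 10 endothelial markers was 706, 674 and 1852 in S100a16+/- replicates 1 to 3, against 1420 to 1573 in WT. For 10 hepatocyte markers it was 8.59, 8.65 and 430.3, against 61.0 to 91.6 in WT. In both sums replicates 1 and 2 lay below WT and replicate 3 above it. The libraries kept in the fit without replicate 3 thus also differ from WT in these sums. For 6 cholangiocyte markers it was 81.8 to 233.0 against 35.7 to 41.4 and for 6 neutrophil markers 28.4 to 31.5 against 16.7 to 19.8, with 1 of each called higher. Without Spp1 the other 5 cholangiocyte markers summed to 4.60 to 7.22 against 5.09 to 5.68, and the neutrophil genes S100a9 and Ly6g were at 0 in every library. The T and NK cell markers and the B cell markers summed to at most 7.58 and 2.78 in any library. In bulk samples, fewer cells of a type and less RNA per cell cannot be told apart, and the part of the cell mixture in the results on the members was not tested. Calls on the members are given with and without S100a16+/- replicate 3.

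Of the 43 members, 2 fell in S100a16+/- cells and none rose. The 2 were Mcm7, a subunit of the replicative helicase, at 62.8% of the WT mean FPKM, and Tk1, the cytosolic thymidine kinase, at 69.8%. The test was edgeR's quasi-likelihood test on counts with Benjamini-Hochberg adjustment over all tested genes, and calls were made below an adjusted p of 0.05. The 2 calls are 4.65% of the members, beside 1.61% of all tested genes called lower, and no member was among the 2.85% called higher. At an unadjusted edgeR p under 0.05, 9 members were lower (20.9%), beside 9.54% of all tested genes, and none was higher, beside 12.4%.

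The 9 were Mcm7, Mcm4, Rfc4, Pola1, Pole, Lig1, Rrm1, Rrm2 and Tk1. The same 9 had FPKM values in all 3 S100a16+/- libraries below all 3 WT libraries, 20.9% of the members beside 18.9% of all tested genes, and 0 members lay wholly above WT, beside 12.5%. A log2 change below 0 was found for 28 members (65.1%), beside 49.8% of tested genes. The share of members with separated groups was thus near the background, while the share of negative changes was above it. The share called lower was also above it but rested on 2 genes. Both calls were lost when any library other than S100a16+/- replicate 3 was left out.

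Changes were small for most members. The median log2 change, S100a16+/- over WT, was -0.12 over the 43 members and 0.00 over all tested genes, with a range over members from -0.62 to 0.29 and a median SE of 0.141. In 35 members the log2 change was smaller than 0.3 in either direction. As medians of log2(CPM over the WT mean), the members stood at -0.12, -0.18 and -0.07 in S100a16+/-, against -0.11, 0.05 and 0.05 in WT. WT replicate 1 therefore lay within the S100a16+/- range, and it was the lowest of the 3 WT libraries in 34 members. Without WT replicate 1 the members' median log2 change was -0.22.

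**Figure D1:**
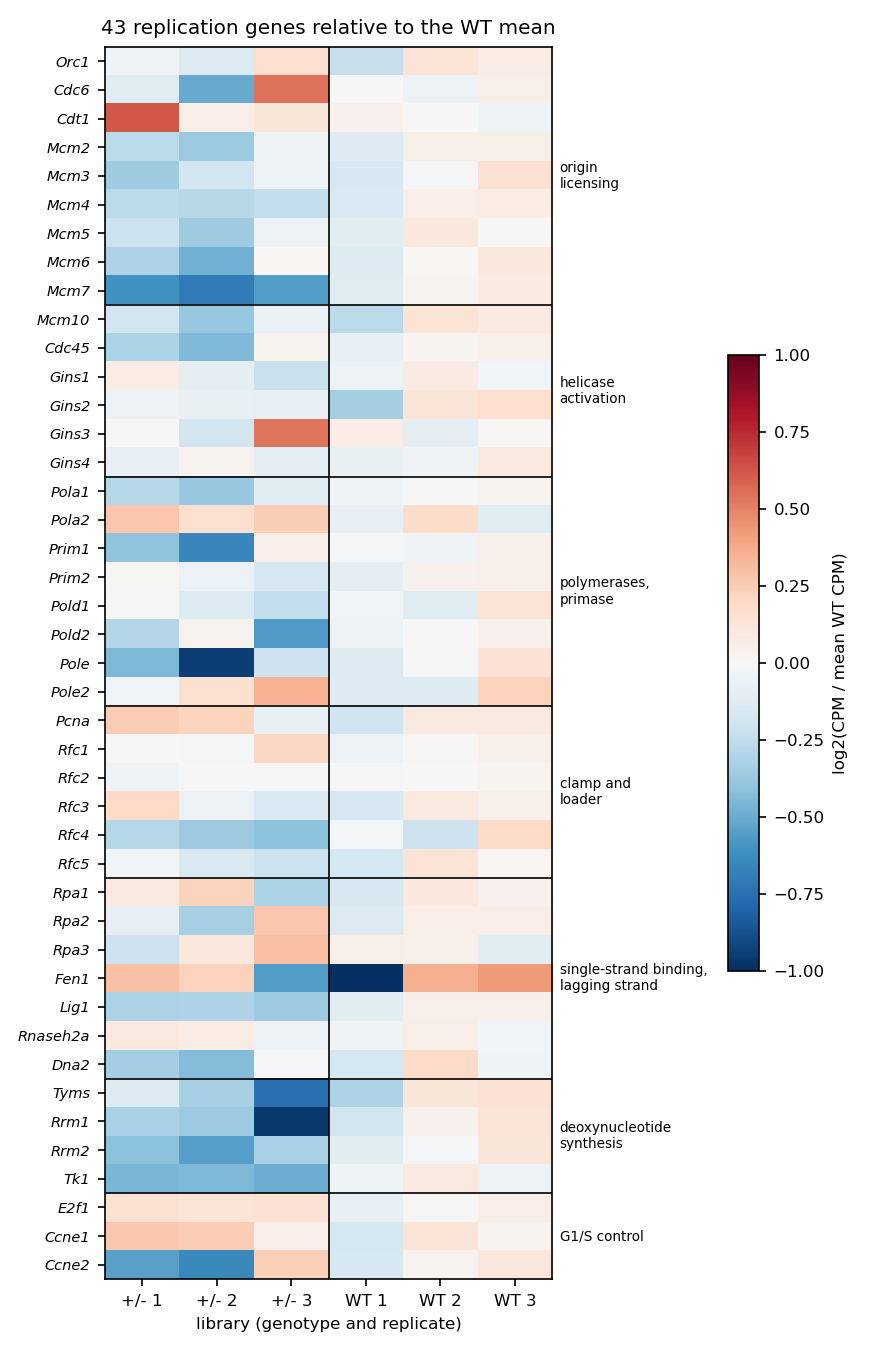
Heat map of log2(CPM over the mean WT CPM) for the 43 members (rows, by role) in the 6 libraries (columns). The members' medians were -0.12, -0.18 and -0.07 in S100a16+/- replicates 1 to 3 and -0.11, 0.05 and 0.05 in WT replicates 1 to 3.

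Leaving out S100a16+/- replicate 3 raised the number of calls. Without it, 12 of 42 members tested fell (28.6%), beside 16.5% of all tested genes, and none rose, beside 15.8%. The 12 were Mcm2, Mcm6, Mcm7, Cdc45, Pola1, Prim1, Pole, Lig1, Rrm1, Rrm2, Tk1 and Ccne2, both earlier calls among them. The members' median hardly moved, to -0.10. S100a16+/- replicates 1 and 2 were both below all 3 WT libraries in 19 members. Replicate 3 was also below in 9 of these and within or above the WT range in the other 10. The share of all tested genes with replicates 1 and 2 below WT was not counted, so whether 19 is unusual cannot be said. By DESeq2 with all 6 libraries, 5 members fell (11.6%), beside 5.98% of all tested genes, and none rose, beside 8.81%. Those were Mcm4, Mcm7, Lig1, Rrm2 and Tk1.

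Because many replication genes carry E2F sites, the members' promoters were searched on both strands for the E2F site in the forms TTTCCCGC, TTTCGCGC, TTTGCCGC and TTTGGCGC, for the NF-Y box CCAAT and for the CHR element TTTGAA, which is known from genes of G2 and mitosis. RefSeq windows of 300 bases on GRCm38.p6, from 250 bases before to 50 after a transcription start, were found for 35 of the 43 members. An E2F form was present in 13 of the 35 (37.1%), against 4.76% of tested genes with a window and 2.60% of all genes with one. CCAAT was present in 21 (60.0%), against 42.6% of tested genes and 41.1% of all genes. CHR was present in 5 (14.3%), against 14.3% and 20.2%. Among 24 mitosis genes with a window the shares were 4.17% for E2F, 79.2% for CCAAT and 70.8% for CHR. The median log2 change was -0.12 in the 13 members with an E2F form and -0.17 in the 22 without, with 1 call in each. A match is a description of letters, not of a bound site.

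The promoters printed are those of the 2 called members, Mcm7 and Tk1, of Mcm5 and Mcm6, in which E2F forms overlap each other, and of Rrm2 and Pcna, which hold CCAAT and no E2F form. Each is the 200 bases before the RefSeq start on GRCm38.p6, 5′ to 3′ on the gene's strand, with E2F forms and CCAAT boxes of either strand in capitals. They lie at chr5:138171884-138172083 (minus strand) for Mcm7, chr1:128359706-128359905 (minus) for Mcm6 and chr8:75109309-75109508 (plus) for Mcm5. The others lie at chr11:117826015-117826214 (minus) for Tk1, chr12:24708054-24708253 (plus) for Rrm2 and chr2:132253181-132253380 (minus) for Pcna. The RefSeq start can differ from the gene bounds of the deposited table. By those bounds the Mcm7 stretch lies wholly inside the gene (chr5:138164583-138172422), and those of Tk1, Rrm2 and Pcna lie partly inside. Mcm7 had another RefSeq window, chr5:138171217-138171516, with 0 E2F forms.
Mcm7: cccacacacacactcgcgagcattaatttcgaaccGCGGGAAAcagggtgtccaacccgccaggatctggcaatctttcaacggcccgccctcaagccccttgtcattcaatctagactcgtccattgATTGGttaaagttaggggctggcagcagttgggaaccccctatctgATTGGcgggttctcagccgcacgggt
Mcm6: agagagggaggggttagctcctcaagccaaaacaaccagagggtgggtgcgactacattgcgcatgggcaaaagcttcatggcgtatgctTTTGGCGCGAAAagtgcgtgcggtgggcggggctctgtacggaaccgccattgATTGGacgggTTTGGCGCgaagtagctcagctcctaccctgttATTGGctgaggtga
Mcm5: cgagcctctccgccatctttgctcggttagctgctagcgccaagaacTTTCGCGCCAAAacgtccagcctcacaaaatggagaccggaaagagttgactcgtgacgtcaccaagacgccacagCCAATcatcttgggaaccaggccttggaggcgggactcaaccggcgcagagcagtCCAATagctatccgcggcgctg
Tk1: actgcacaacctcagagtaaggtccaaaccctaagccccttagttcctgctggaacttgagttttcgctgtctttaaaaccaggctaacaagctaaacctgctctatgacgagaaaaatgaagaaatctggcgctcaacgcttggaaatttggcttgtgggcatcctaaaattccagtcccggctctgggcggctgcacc
Rrm2: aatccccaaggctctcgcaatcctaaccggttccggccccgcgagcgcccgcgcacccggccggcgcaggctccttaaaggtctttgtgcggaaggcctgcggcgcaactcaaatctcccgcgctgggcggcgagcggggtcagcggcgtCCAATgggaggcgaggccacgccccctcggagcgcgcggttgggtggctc
Pcna: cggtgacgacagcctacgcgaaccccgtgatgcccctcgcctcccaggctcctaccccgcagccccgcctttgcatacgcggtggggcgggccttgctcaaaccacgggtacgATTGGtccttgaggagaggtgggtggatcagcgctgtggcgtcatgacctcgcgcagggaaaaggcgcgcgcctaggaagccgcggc
In the Mcm6 and Mcm5 promoters, a pair of E2F forms on opposite strands share their central letters, and both promoters hold a pair of CCAAT boxes nearer the start, as does Mcm7. The Tk1 stretch holds no E2F form and no CCAAT box.

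Origin licensing held 9 members, of which 6 had a log2 change below 0 and 1 was called, with a median of -0.20. All 6 subunits of the Mcm2 to Mcm7 ring were below 0, with a median of -0.23. Their summed FPKM came to 72.1, 69.7 and 84.6 in S100a16+/-, against 85.7, 97.5 and 100.7 in WT. These sums did not overlap, and S100a16+/- replicate 3 lay just under WT replicate 1. That gap was smaller than the gap between the same libraries in Mcm7 alone, 9.20 against 12.6. It was also smaller than the gap in Mcm4 alone, 14.36 against 15.57. The separation of the sums therefore rested on Mcm7 and on Mcm4. Of the single subunits, only Mcm4 and Mcm7 had separated groups. Sums of this kind were not tested.

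Mcm7 (ENSMUSG00000029730, chr5:138164583-138172422, minus strand, coordinates as in the deposited table) had an FPKM of 8.71, 8.10 and 9.20 in S100a16+/-, against 12.6, 14.1 and 14.6 in WT. Every S100a16+/- library was below every WT library. Mean FPKM was 8.67 ± 0.550 (SD, n = 3) against 13.8 ± 1.03 (SD, n = 3). The log2 change was -0.62, with an SE of 0.08 and an edgeR adjusted p of 0.0216. Without S100a16+/- replicate 3 the change was -0.65 (adjusted p = 0.00265), and with any other library left out the edgeR adjusted p was 0.0791 to 0.133, so that call was lost in those 5 fits. On the opposite strand Mcm7 overlaps Ap4m1, with 1403, 1490 and 1664 counts in S100a16+/- against 2108, 2457 and 2455 in WT, and Cops6, with 5566, 5478 and 4221 against 4730, 6151 and 5941. Ap4m1 was thus separated by genotype in the same direction as Mcm7, while Cops6 overlapped. The sources used here do not give whether counting used the strand, so reads of Ap4m1 and Mcm7 cannot be told apart where they overlap.

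Mcm4, another ring subunit, had an FPKM of 13.8, 13.7 and 14.4 against 15.6, 18.1 and 18.4. The groups did not overlap, and the difference of -0.26 on the log2 scale (SE 0.08) passed in DESeq2 (adjusted p = 0.0478) and not in edgeR (adjusted p = 0.132). For Mcm2 and Mcm6, S100a16+/- replicate 3 lay inside the WT range. Mcm6 had 14.3, 12.6 and 18.4 against 16.7, 18.8 and 19.9, and its log2 change went from -0.24 (edgeR adjusted p = 0.393) with all libraries to -0.39 (adjusted p = 0.0247) without replicate 3. Mcm2 had 7.46, 6.90 and 8.88 against 8.53, 9.77 and 9.76, with changes of -0.22 (edgeR adjusted p = 0.293) and -0.32 (adjusted p = 0.0297). Mcm3 and Mcm5, at -0.19 (SE 0.12) and -0.20 (SE 0.10), passed with neither set of libraries.

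None of the 3 loading factors among the members passed the test. Cdt1, which brings the ring to origins, had an FPKM of 7.52, 5.07 and 5.42 against 5.20, 5.09 and 4.93, and its change of 0.29 (SE 0.17, edgeR adjusted p = 0.369) rested on S100a16+/- replicate 1. Cdc6, the loader ATPase, had 1.82, 1.38 and 2.94 against 2.05, 1.98 and 2.14. Its 3 S100a16+/- libraries lay on both sides of WT, with a log2 change of 0.04 (SE 0.27), or -0.30 without S100a16+/- replicate 3. Orc1, the ATPase of the origin recognition complex, was near 1 FPKM in every library, with a change of 0.00 (SE 0.16), or -0.08 without that library.

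**Figure D2:**
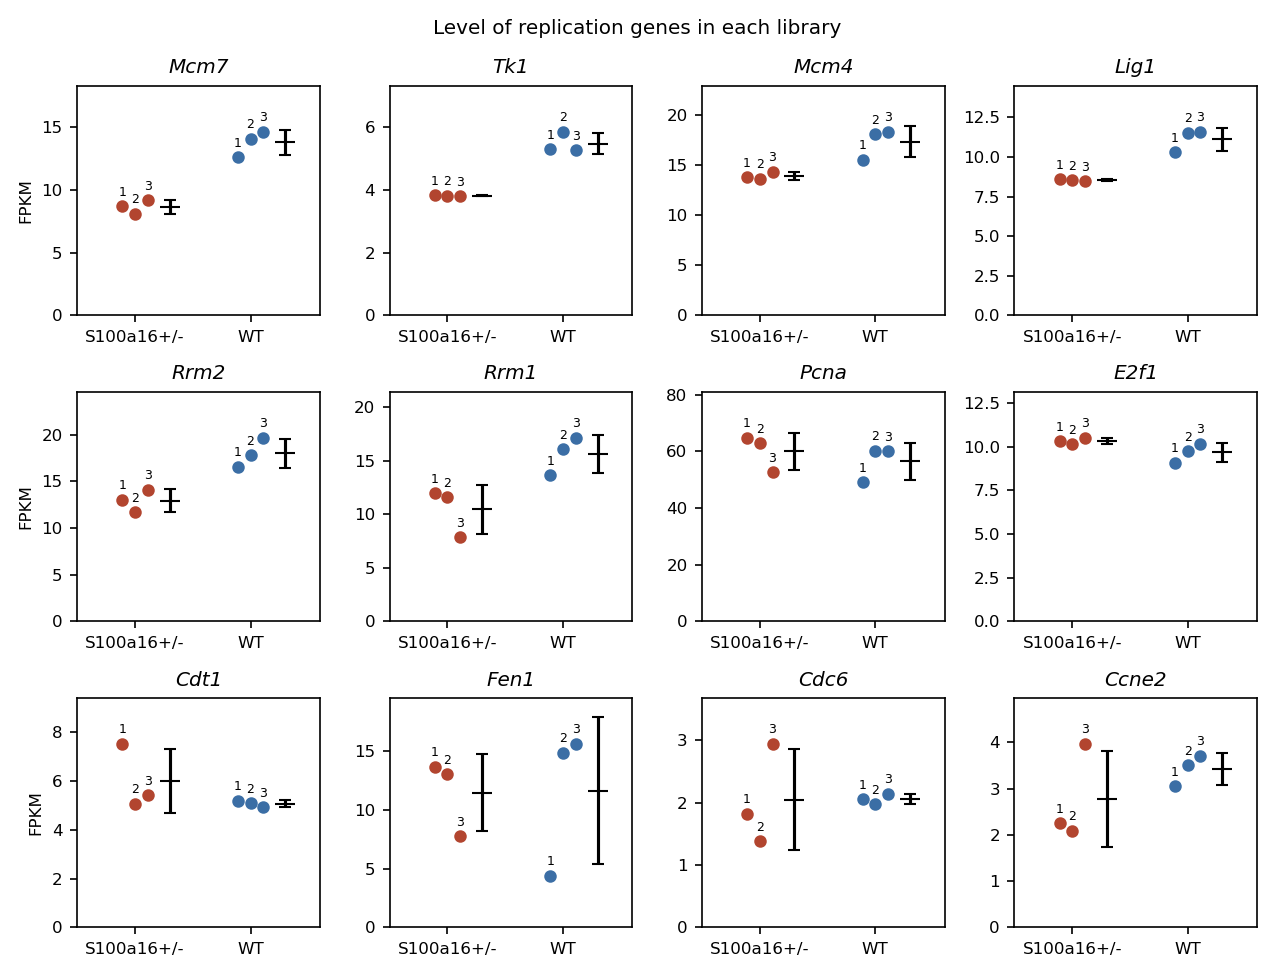
FPKM in each library (points) with the mean and SD of each genotype for 12 members, 3 libraries per genotype. Mcm7, Tk1, Mcm4, Lig1, Rrm2 and Rrm1 had S100a16+/- libraries wholly below WT, while Pcna, E2f1, Cdt1, Fen1, Cdc6 and Ccne2 overlapped.

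Among the 6 members of helicase activation 5 were below 0 and 0 were called, with a median of -0.07. Cdc45, which joins the ring to form the active helicase, had an FPKM of 2.64, 2.40 and 3.44 against 3.21, 3.49 and 3.55. S100a16+/- replicates 1 and 2 were below all WT libraries and replicate 3 within them, so that the log2 change was -0.22 (SE 0.15, edgeR adjusted p = 0.443) with all libraries and -0.37 (adjusted p = 0.0345) without replicate 3. The GINS subunits ran from -0.08 (Gins1, SE 0.14) to 0.15 (Gins3, SE 0.21), and Gins4 was the best measured of them at -0.05 (SE 0.09). Mcm10, which helps start unwinding, was at -0.21 (SE 0.15). Adjusted p in edgeR for this role ran from 0.443 to 0.830.

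Of the 8 polymerase and primase members, 6 were below 0 and 0 were called, with a median of -0.19. Pole, the catalytic subunit of the leading-strand polymerase, had an FPKM of 1.87, 1.32 and 2.26 against 2.41, 2.63 and 2.95. The groups did not overlap, and at these low levels the log2 change of -0.50 had an SE of 0.20 (edgeR adjusted p = 0.217), or -0.68 (adjusted p = 0.0316) without S100a16+/- replicate 3. Pola1, the catalytic subunit of the priming polymerase and a gene on chromosome X, had 1.87, 1.74 and 2.16 against 2.30, 2.38 and 2.42. Its change was -0.25 (SE 0.10, edgeR adjusted p = 0.204), and -0.33 (adjusted p = 0.0180) without replicate 3. Prim1, the primase catalytic subunit, had 2.04, 1.70 and 2.88 against 2.76, 2.74 and 2.92, with changes of -0.30 (edgeR adjusted p = 0.440) and -0.52 (adjusted p = 0.0204).

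Other subunits of the same enzymes had different values. Pole2, the partner of Pole, was at 0.17 (SE 0.17) and Pola2, the partner of Pola1, at 0.23 (SE 0.10), while Prim2 was at -0.07 (SE 0.10). Of the lagging-strand polymerase, Pold1 was at -0.12 (SE 0.11) and Pold2 at -0.25 (SE 0.16). None of these 5 passed the edgeR test with or without S100a16+/- replicate 3.

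The sliding clamp and its loader showed the smallest median of the roles, 0.00 over 6 members, with 3 below 0 and 0 called. Pcna, the clamp, was the most abundant member by FPKM, at 64.8, 62.9 and 52.6 in S100a16+/-, against 49.0, 60.2 and 60.1 in WT. The groups overlapped, with means of 60.1 ± 6.55 (SD, n = 3) and 56.4 ± 6.42 (SD, n = 3) and a log2 change of 0.14, with an SE of 0.13 (edgeR adjusted p = 0.570). Of the loader subunits Rfc1, Rfc2 and Rfc3 lay at 0.07, -0.01 and 0.00 with SEs of 0.08, 0.06 and 0.14. Rfc4 alone had separated groups, 3.55, 3.33 and 3.33 against 4.47, 3.91 and 5.17, with a change of -0.35 (SE 0.14, edgeR adjusted p = 0.224). Rfc5 was at -0.13 (SE 0.11).

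Of the 7 members for single-strand binding and lagging-strand maturation, 3 were below 0 and 0 were called, with a median of 0.02. Lig1, the ligase that seals Okazaki fragments, had an FPKM of 8.59, 8.55 and 8.48 against 10.3, 11.5 and 11.6. The S100a16+/- libraries lay close together below WT, and the log2 change of -0.33 (SE 0.07) had an edgeR adjusted p of 0.0643, a DESeq2 adjusted p of 0.00095, and an edgeR adjusted p of 0.0217 without S100a16+/- replicate 3. The subunits of the single-strand binding protein, Rpa1, Rpa2 and Rpa3, were at 0.02, -0.03 and 0.08 with SEs of 0.16 to 0.17. Rnaseh2a, which removes RNA primers and ribonucleotides, was at 0.04 (SE 0.08), and Dna2, a flap nuclease near 1 FPKM, at -0.25 (SE 0.17).

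Fen1, the flap nuclease that trims Okazaki fragments, varied most within a genotype. Its counts were 2604, 2453 and 1288 in S100a16+/-, against 782, 3058 and 3055 in WT. WT replicate 1 was lowest and S100a16+/- replicate 3 next, and the log2 change of 0.04 carried an SE of 0.50, so a change of the size seen in Mcm7 was not detectable for this gene. It overlaps Tmem258 on the opposite strand, which had 2886 to 3593 counts. WT replicate 1 (2886) and S100a16+/- replicate 3 (2919) were lowest there too, but the range was far narrower than in Fen1.

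Deoxynucleotide synthesis had the lowest median of the 7 roles, -0.45, with 4 of 4 members below 0 and 1 called. Tk1 (ENSMUSG00000025574, chr11:117815526-117826092, minus strand), which salvages thymidine, had an FPKM of 3.82, 3.82 and 3.80 in S100a16+/-, against 5.30, 5.85 and 5.26 in WT. The S100a16+/- libraries were nearly equal and all below WT, with means of 3.82 ± 0.0101 (SD, n = 3) and 5.47 ± 0.330 (SD, n = 3). The log2 change was -0.47 (SE 0.08, edgeR adjusted p = 0.0356). Without S100a16+/- replicate 3 it was -0.45 (adjusted p = 0.00765), and the edgeR adjusted p was 0.125 to 0.152 with any other library left out. On the opposite strand Tk1 overlaps Afmid, with 194, 215 and 65 counts in S100a16+/- against 682, 299 and 303 in WT, and Gm20708, with 316, 382 and 207 against 134, 435 and 436. Afmid was thus also wholly lower in S100a16+/-, while Gm20708 overlapped, and their part in the counts of Tk1 was not tested.

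Both subunits of ribonucleotide reductase, which makes deoxynucleotides from ribonucleotides, had separated groups. Rrm2, the small subunit that is made in S phase, had an FPKM of 13.0, 11.7 and 14.1 against 16.6, 17.8 and 19.6, with an SE of 0.10 about a log2 change of -0.43 (adjusted p = 0.0699 in edgeR and 0.00418 in DESeq2). Without S100a16+/- replicate 3 it was -0.48 (edgeR adjusted p = 0.0129). Rrm1, the large subunit, had 12.0, 11.6 and 7.86 against 13.7, 16.1 and 17.1. Here S100a16+/- replicate 3 was the lowest library, the reverse of its place in Mcm2 and Mcm6, and the change was -0.52 (SE 0.19, edgeR adjusted p = 0.186), or -0.34 (adjusted p = 0.0452) without it. Tyms, thymidylate synthase, was at 3.17, 2.74 and 2.11 against 2.91, 3.95 and 4.02, with overlapping groups and a change of -0.38 (SE 0.20, edgeR adjusted p = 0.335).

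The 3 G1/S control members had a median of 0.14, with 1 below 0 and 0 called. E2f1, the transcription factor that drives S-phase genes, had an FPKM of 10.3, 10.1 and 10.5 against 9.09, 9.76 and 10.2, for which the log2 change was 0.14 (SE 0.07, edgeR adjusted p = 0.292). Ccne1, a cyclin that activates Cdk2 at S-phase entry, was at 0.20 (SE 0.12, adjusted p = 0.386 in edgeR). Its paralogue Ccne2 had 2.26, 2.09 and 3.97 against 3.05, 3.51 and 3.71. S100a16+/- replicates 1 and 2 were the lowest libraries and replicate 3 the highest, so the change was -0.26 (SE 0.26, edgeR adjusted p = 0.619) with it and -0.59 (adjusted p = 0.0148) without it.

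**Figure D3:**
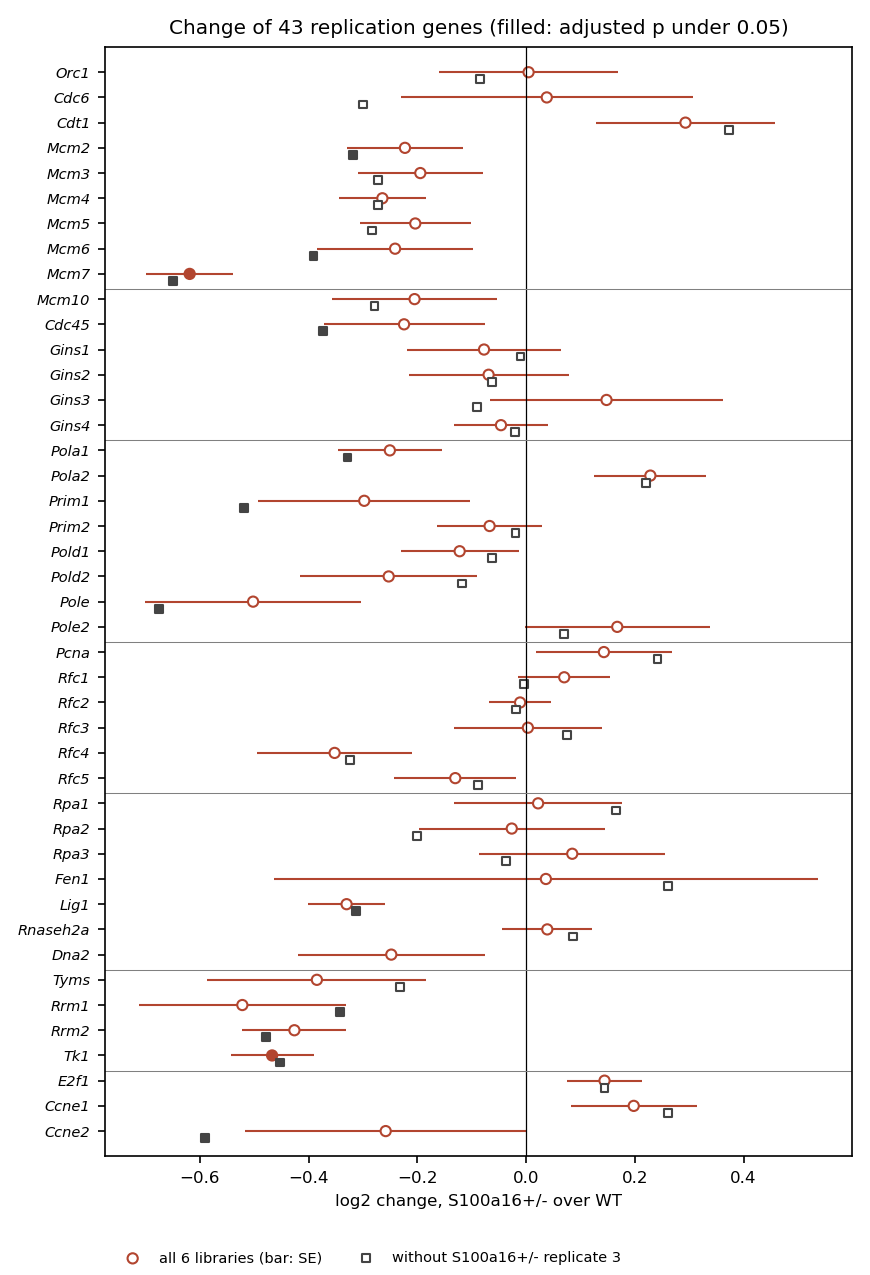
Log2 change (S100a16+/- over WT) with its SE for the 43 members by role, over all 6 libraries (circles) and without S100a16+/- replicate 3 (squares), with filled marks for an edgeR adjusted p under 0.05. With all libraries Mcm7 and Tk1 were filled, and 12 of 42 were without replicate 3.

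S100a16+/- replicate 3 was above both other S100a16+/- libraries in 24 members, below both in 15 and between them in 4. Its sex genes and its markers of other cell types differed as given above, and their part in these values was not tested. Counts in 12 members could include reads of an overlapping gene on the opposite strand that held at least 10% of their own counts, namely Mcm7, Cdc45, Gins2, Orc1, Rfc2, Rfc4, Rfc5, Fen1, Lig1, Rnaseh2a, Tk1 and Ccne2.

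The other genes of these pathways were taken from 5 lists, with 117 of 122 genes tested. Of these, 5 fell (4.27%), beside 1.61% of all tested genes, and 5 rose (4.27%), beside 2.85%. The median log2 change was -0.06. Those that fell were Top2a, the topoisomerase that untangles replicated DNA (-0.61, edgeR adjusted p = 0.0306), Orc6, a subunit of the origin recognition complex (-0.48), Rbbp7, a histone chaperone (-0.39), Uck2, a uridine-cytidine kinase (-0.59), and Ccna2, the cyclin of S phase and G2 (-0.66, edgeR adjusted p = 0.0293). Those that rose included Rnaseh2c, a partner of Rnaseh2a (0.46), Ctps2, a CTP synthase (0.45), Impdh1, of guanine nucleotide synthesis (0.43), and Mthfd2, of one-carbon metabolism (0.73). Without S100a16+/- replicate 3, 22 of 116 fell (19.0%) and 15 rose (12.9%), shares near the 16.5% and 15.8% of all tested genes in that fit, and with any other library left out 0 were called. The list medians were -0.05 for other replication proteins, -0.20 for chromatin assembly, -0.09 for other pyrimidine and deoxynucleotide genes, 0.00 for purine and one-carbon genes and -0.07 for G1/S regulators. Cdkn1a, the p53-induced inhibitor of cyclin-dependent kinases, was higher in every S100a16+/- library than in WT, at 0.18 (adjusted p = 0.191 in edgeR and 0.0410 in DESeq2), and at 0.23 (edgeR adjusted p = 0.00468) without S100a16+/- replicate 3.

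Mitosis genes stood lower than the replication members in the same fit. Of 30 mitosis genes, 9 fell (30%), beside 1.61% of all tested genes, and none rose, beside 2.85%. Their median log2 change was -0.65. S100a16+/- libraries lay wholly below WT in 28 of the 30, against 9 of the 43 members and 18.9% of all tested genes. Without S100a16+/- replicate 3, 23 of the 30 fell (76.7%), beside 16.5% of all tested genes in that fit. With any other library left out 0 or 1 did. The proliferation antigen gene Mki67 had an FPKM of 9.88, 9.13 and 11.5 against 15.96, 16.5 and 17.7, for which the log2 change was -0.67 (edgeR adjusted p = 0.0251). Cenpa, the centromeric histone, was at -0.98 (edgeR adjusted p = 0.0120) and Kif23, a kinesin of cytokinesis, at -0.95 (adjusted p = 0.0230). The difference between these lists was not itself tested, and both were chosen with earlier results known.

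**Figure D4:**
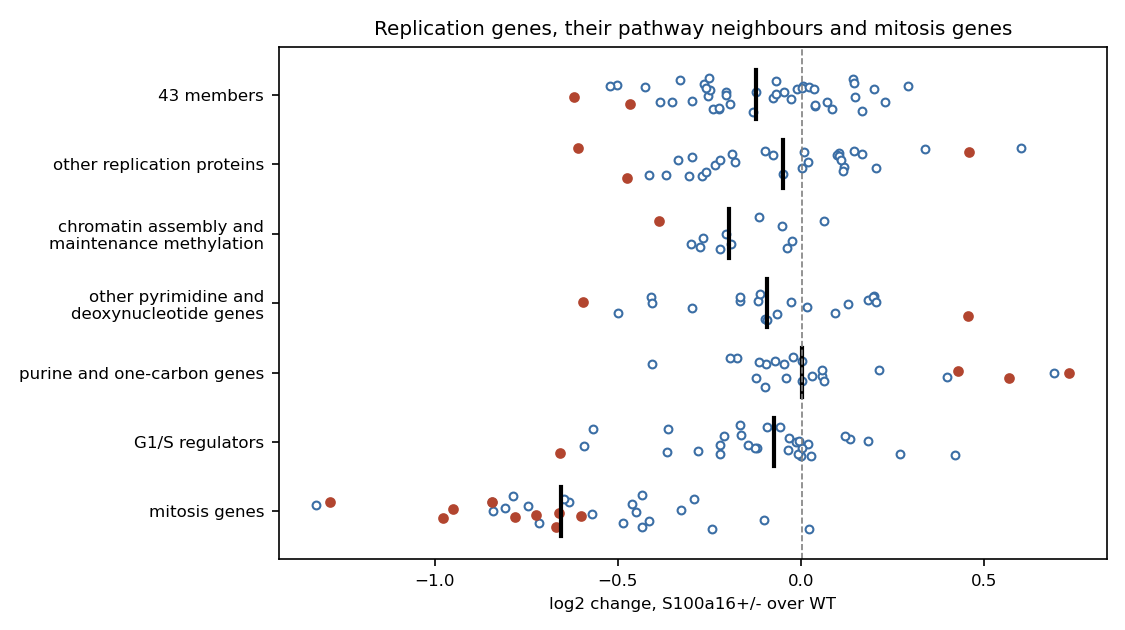
Log2 change (S100a16+/- over WT) of each tested gene in the members, the 5 pathway lists and the mitosis list, with a bar at each list's median, red points for edgeR adjusted p under 0.05 and a dashed line at the median of all tested genes. The medians were -0.12 for the members, -0.65 for the mitosis genes and between -0.20 and 0.00 for the pathway lists.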

How the data were processed

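The deposited table gave counts and FPKM values for every gene in every library, per the file headers. Tools named, per the submitters' processing notes, were edgeR, DESeq2, StringTie 1.3.4d, UMI-tools, HISAT2 2.0.4 and cutadapt 1.9. Their roles, the genome build and any use of strand in counting were not given in the sources used here. Genes reaching an FPKM of 1 in 3 or more of 6 libraries were tested. Their counts, scaled by TMM, were fitted by edgeR 4.0.16 (R 4.3.3), genotype as the only term, Benjamini-Hochberg adjustment over 12766 genes, called at adjusted p under 0.05. Each SE is the log2 change over the root of F. Alternatives used DESeq2 1.42.0, limma 3.58.1, other scalings, filters and pseudocounts, a replicate block and each library left out. Of the table's genes, 55141 were in GENCODE M21, 51920 (94.2%) with the same coordinates. The members and lists were chosen with earlier results of these data known. Named genes were all members, S100a16, Mki67, Cdkn1a and E2f7 (not tested, below the filter), up to 4 called genes per list, and markers per cell type, given mostly as sums; Xist, Ddx3y and the stellate markers were singled out after their values were seen. The lowest member count in a library was 234. Of the called pathway genes, 1 is not reported here by name.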

Additional observations from a re-analysis of the deposited data

How the results depend on the processing

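No called member changed sign under any alternative run, and up to 7 uncalled members did in a setting. Among all tested genes, 364 rose and 206 fell (63.9% higher), against 52.8% higher with library totals, 43.7% with log2(TPM + 1) and 50.5% with log2(FPKM + 1). With DESeq2, 1125 rose and 763 fell, with 5 members and 12 other pathway genes lower. With library totals or log2(FPKM + 1), 3 pathway genes rose. With log2(TPM + 1), 209 of all genes and 0 pathway genes rose, and the members' median was -0.21. With log2(FPKM + 0.1), 214 genes and 2 pathway genes rose. With no filter, 162 rose and 81 fell, with 1 member lower, 1 pathway gene higher and 0 lower. At a mean FPKM of at least 5, 137 genes fell, with 1 member among the 22 tested. Tk1 was removed by that filter, and no call was lost among the members tested. Under the replicate block 0 genes rose and 0 fell, so 0 members and 0 pathway genes were called in either direction. Deviations from the genotype mean correlated at -0.14, 0.04 and -0.05 between same-numbered libraries. With 3 libraries per genotype and S100a16+/- replicate 3 apart from the others, this cannot show whether the numbers pair samples. Leaving out 1 library gave 20 to 1990 genes higher and 5 to 2076 lower, 0 to 12 members lower, 0 to 15 pathway genes higher and 0 to 22 lower, and members' medians of -0.218 to -0.0717. Over the left-out libraries, log2 changes of markers ran from -3.35 to 1.20 for Alb, from -3.81 to 2.41 for Apoa1, from -0.62 to 0.27 for Acta2 and from -0.57 to 0.24 for Tagln, each reversed in sign without S100a16+/- replicate 3. Both member calls were lost without any 1 library other than S100a16+/- replicate 3.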

Other observations

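Chtf8, a partner of the alternative clamp loader and 1 of the other replication proteins, was named after its values were seen. It had 879 counts in WT replicate 2 and 5385 to 7910 in the other 5 libraries. Gm50241, which overlaps it on the same strand, had 6805 counts in WT replicate 2 and 96 to 1242 in the others.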
